A study of Mus musculus with 6 samples.

Results

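The 9 genes described here make up the non-collagen side of bone matrix and its mineralisation. They were listed by name, and their rows were taken from a table of 27179 genes in which all 9 were present. They encode the matrix proteins osteopontin (Spp1), osteonectin (Sparc), bone sialoprotein (Ibsp) and osteocalcin (Bglap), the enzymes tissue-nonspecific alkaline phosphatase (Alpl), PHEX (Phex) and neutral sphingomyelinase 2 (Smpd3), the osteoblast membrane protein Ifitm5, and the parathyroid hormone receptor Pth1r. RNA came from bone marrow stromal cells of mice at postnatal day 2 (P2), sorted for the DsRed reporter carried at the Cxcl12 gene and for lack of the surface markers CD45 (blood), Ter119 (red cells) and CD31 (endothelium). All groups shared the strain C57BL/6, the genotype Cxcl12-dsred/+ and this sort, in which 1 copy of Cxcl12 carries the reporter. In an m6A pull-down (MeRIP-seq), poly(A) RNA was bound by an antibody to N6-methyladenosine and compared with RNA bound by IgG and with unselected RNA. There were 2 anti-m6A libraries, 2 IgG libraries and 2 Input libraries made from 6% of the RNA that was kept back. The labels do not say whether replicates came from separate animals, so the p-values reflect only how much these libraries differed, and that may be technical. The labels state no fragmentation, and reads were summed per gene, so a difference between groups concerns whole transcripts and places no methylated base.

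Osteoblasts lay down collagen and load it with calcium phosphate. Acidic and vitamin K-dependent proteins bind the growing crystals, alkaline phosphatase removes the mineralisation inhibitor pyrophosphate, and parathyroid hormone acts on the same cells through Pth1r. N6-methyladenosine is the most common internal modification of mRNA, is often found near stop codons, and its commonest sequence context is GGAC followed by U.

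GGACT, the DNA spelling of that context, was searched on the RNA's own strand of 1 main transcript per gene of GENCODE M21 (GRCm38). All 9 genes held it, as did 87.5% of the 21618 transcripts searched. It occurred 0.435 to 2.61 times per kb in the 9 genes, with a median of 0.971, against a median of 1.02 over all transcripts. Within 100 bases on either side of the stop codon, 3 of the 9 genes held it (Bglap, Pth1r and Ifitm5), against 22.9% of the 19324 transcripts that fill this window. The copy nearest to the stop codon is shown for each gene, because m6A is often found near stop codons. No other m6A context was searched. Except in Bglap, Pth1r and Ifitm5, this copy lay more than 100 bases from the stop. Capitals mark GGACT and the other letters are 12 flanking bases on each side.
Bglap: ggctgctctccgGGACTtgatcctccctg
Pth1r: catcaaggggctGGACTgctggcatgggc
Ifitm5: gtttgatgaggaGGACTataactaagagt
Ibsp: atctatgagctgGGACTagatggatactt
Smpd3: tctgcggacagaGGACTtgggccagcctg
Spp1: agcttggcttatGGACTgaggtcaaagtc
Sparc: caagctccacctGGACTacatcggaccat
Alpl: cccctccagggtGGACTacctcttaggtc
Phex: attttcagaatcGGACTactttggcaacg
Measured from the first base of the stop codon, the motif began 57 bases after it in Bglap, 20 after it in Pth1r and 10 before it in Ifitm5, at the end of the coding sequence. It lay 274 bases after the stop in Ibsp and 202 after it in Smpd3, in the 3′ UTR of each. In Spp1, Sparc, Alpl and Phex it lay in the coding sequence, 432, 481, 724 and 748 bases before the stop. A match is a description of these letters and not a mapped m6A site.

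Osteocalcin has near-identical copies in the mouse, Bglap2 and Bglap3, which lie beside Bglap on the minus strand of chromosome 3. In GRCm38, Bglap spans 88383495 to 88384466, Bglap2 spans 88377736 to 88378701 and Bglap3 spans 88368616 to 88372741. Their coding sequences, 288 bases each, are shown because they set which reads can be told apart. Capitals mark bases that differ from Bglap.
Bglap: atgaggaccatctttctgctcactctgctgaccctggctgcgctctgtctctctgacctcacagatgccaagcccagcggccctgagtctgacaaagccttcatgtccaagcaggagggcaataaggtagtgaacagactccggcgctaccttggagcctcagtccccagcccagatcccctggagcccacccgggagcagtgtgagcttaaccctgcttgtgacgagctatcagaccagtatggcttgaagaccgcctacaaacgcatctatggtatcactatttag
Bglap2: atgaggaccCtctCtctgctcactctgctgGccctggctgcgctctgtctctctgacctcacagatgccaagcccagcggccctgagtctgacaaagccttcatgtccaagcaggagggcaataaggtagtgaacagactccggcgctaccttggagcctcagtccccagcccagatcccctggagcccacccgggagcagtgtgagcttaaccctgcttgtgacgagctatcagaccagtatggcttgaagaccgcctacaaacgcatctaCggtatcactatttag
Bglap3: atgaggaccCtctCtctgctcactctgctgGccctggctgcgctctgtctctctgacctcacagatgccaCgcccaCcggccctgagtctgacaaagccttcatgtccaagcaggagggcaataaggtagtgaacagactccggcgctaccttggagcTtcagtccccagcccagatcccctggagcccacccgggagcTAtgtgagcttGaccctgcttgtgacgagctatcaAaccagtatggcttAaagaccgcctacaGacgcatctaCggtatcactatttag
Bglap2 differed from Bglap at 4 of 288 coding bases (98.6% identity), and the longest stretch they share without a difference is 241 bases. Bglap3 differed from Bglap at 13 bases (95.5% identity), with a longest shared stretch of 81 bases. Bglap and Bglap2 also share the whole GGACT window printed above. How reads that match several copies were assigned is not given in the sources used here, so the 3 osteocalcin rows are uncertain one by one and are given below both separately and as a sum.

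Library depth was 6102070 and 5133237 counts in anti-m6A, 2487148 and 1278735 in IgG, and 7125578 and 9493391 in Input. The libraries detected 12391 to 12714 genes in anti-m6A, 2723 to 3266 in IgG and 10024 to 11186 in Input. Over genes with enough counts, the variance between replicates was on average 9.93 times that of random sampling in anti-m6A, 21.9 times in IgG and 119 times in Input. This ratio grows with counts and covered 10291, 2300 and 9898 genes in the same order, so it does not rank the groups. All 8 Cxcl12 stroma markers were detected in the anti-m6A and Input libraries, where they summed to 0.261% to 0.264% and 0.693% to 0.768% of counts. In IgG, 4 to 5 of them were detected and they summed to 0.293% and 0.330%, a larger share than in anti-m6A. Of 8 osteocyte markers, 5 were detected in each anti-m6A library (0.00166% and 0.00101% of counts), 0 in IgG and 3 to 4 in Input (0.00319% and 0.00216%), while Sost, Mepe and Fgf23 had 0 counts in every library. Of 10 osteoclast markers, 4 were detected in each anti-m6A library, 1 in IgG and 3 in Input, and they summed to 1797 and 1471 counts in anti-m6A, 54 and 7 in IgG and 5765 and 8930 in Input. Among them, Calcr, Ocstamp, Dcstamp, Atp6v0d2, Tnfrsf11a and Oscar had 0 counts in all 6. The 8 macrophage markers summed to 0 counts in both anti-m6A libraries, 0 to 4 in IgG and 201 to 300 in Input, and of them Adgre1, C1qb and C1qc had 0 counts throughout. Osteoclasts and macrophages are other known sources of Spp1, and their part in its counts was not tested.

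The 9 genes together held 2.47% and 2.32% of all counts in anti-m6A, 2.26% and 2.90% in IgG and 1.56% and 1.92% in Input. The exact 95% binomial intervals of these shares are no wider than 2.88% to 2.93%, the interval of the second IgG library, and like all such intervals here they cover counting error only. Spp1 had the most counts of any gene in the table in each of the 6 libraries, with no correction for length. Of the 9 genes, 8 passed the filter on low counts and were tested with 11281 genes in 1 edgeR quasi-likelihood fit. Phex did not pass.

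Against IgG, 5 of the 8 tested genes (Alpl, Ibsp, Sparc, Pth1r and Ifitm5) were higher in anti-m6A and none was lower, at an edgeR adjusted p under 0.05. Among all genes tested, 73.1% were called higher and 8.31% lower in this comparison. Against Input, 3 of the 8 (Bglap, Spp1 and Sparc) were higher in anti-m6A and none was lower, where 28.0% of all genes were called higher and 20.5% lower. In IgG against Input, 2 of the 8 (Bglap and Spp1) were higher and 5 (Alpl, Ibsp, Pth1r, Smpd3 and Ifitm5) were lower, where 9.89% of all genes were called higher and 61.5% lower. The 3 comparisons share libraries. In this fit Sparc was the only one of the 8 called higher in anti-m6A against both IgG and Input. The share of all genes tested that were called higher in both was not counted, so this does not single out Sparc.

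The median log2 change of the 8 tested genes was 0.39 in anti-m6A against Input, against 0.18 over all genes tested. In anti-m6A against IgG it was 1.70, or 1.24 with genes at 0 in IgG set to their bound, against a fitted 8.48 over all genes. In IgG against Input it was -1.91, against a fitted -8.23 over all genes. Most genes tested had 0 counts in IgG, where the fitted value depends on the prior count. The values 8.48 and -8.23 therefore do not measure a typical change. No median of all genes at the bound is given to compare with the 8 genes. Pth1r, Smpd3, Ifitm5 and the untested Phex had 0 counts in both IgG libraries, as did 73.4% of the genes tested. A count of 0 is set here against a floor of 3 counts per library, which is 1.16 and 1.94 CPM (counts scaled to the library size) in IgG, so folds against it are lower bounds.

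Scaling bears on the values of all comparisons. In anti-m6A against Input, DESeq2's size factors in place of TMM moved the median of all genes by -0.44 on the log2 scale. Library totals alone moved it by -0.54. In the same order, it moved by -0.22 and -0.36 in anti-m6A against IgG, and by -0.23 and -0.16 in IgG against Input. Where each library had to hold 10 counts, the median of the genes then tested moved too. The shifts were 0.338 in anti-m6A against IgG, -0.565 in anti-m6A against Input and -0.903 in IgG against Input. Of the calls in anti-m6A against Input, 57.8% were higher as fitted, 47.6% with DESeq2's size factors and 45.5% with library totals. The groups are bound and unselected RNA from cells of the same sort. Changes between them therefore measure neither the number of cells of a type nor the RNA per cell.

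**Figure D1:**
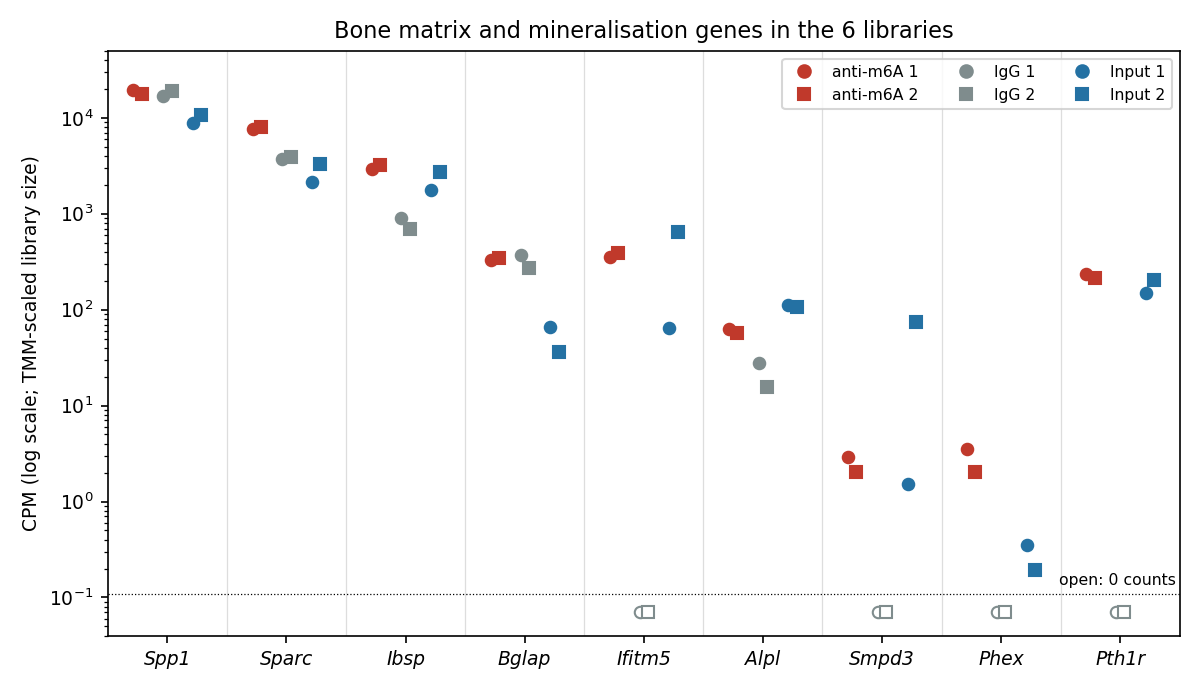
Level of each of the 9 genes in each library, as CPM scaled to the TMM library size on a log axis; circles are replicate 1, squares replicate 2, and open symbols below the dotted line mark 0 counts. Bglap, Spp1, Sparc, Ibsp and Alpl have counts in IgG, whereas Ifitm5, Smpd3, Phex and Pth1r have 0 in both IgG libraries.

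**Figure D2:**
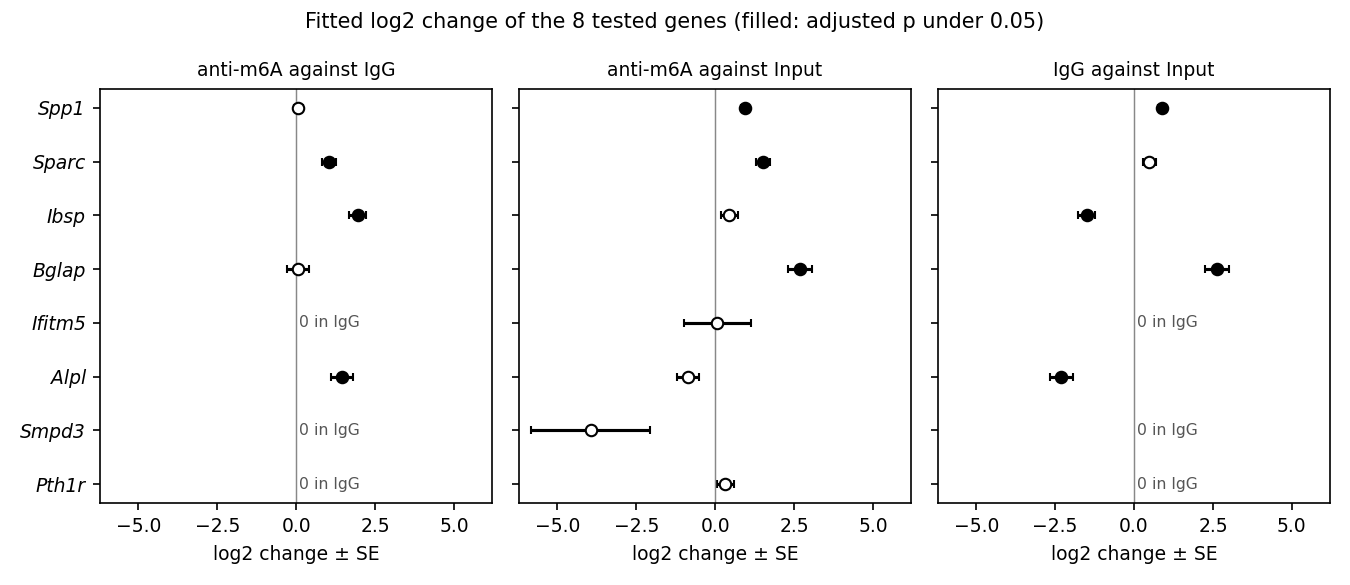
Fitted log2 change with its standard error (SE) for the 8 tested genes in the 3 comparisons, with filled points at an edgeR adjusted p under 0.05. Genes with 0 counts in IgG have no finite fold there and are marked in words; in anti-m6A against Input only Bglap, Spp1 and Sparc are filled.

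Osteopontin, the product of Spp1, is a phosphorylated protein that binds mineral and integrins and restrains crystal growth. The gene spans 104435111 to 104441053 on chromosome 5 and its main transcript has 8 exons and 1411 bases. Spp1 had counts of 95031 and 70577 in anti-m6A, 43197 and 29674 in IgG and 74689 and 109177 in Input. Scaled, these were 19710.3 and 17792 CPM in anti-m6A, 16702 and 19234 CPM in IgG, against 8839 and 10591 CPM in Input. The anti-m6A and IgG libraries overlapped, and all 4 of them were above both Input libraries. Spp1 averaged 18751 ± 1356 CPM in anti-m6A and 9715 ± 1239 CPM in Input (SD, n = 2 each), which is a log2 change of 0.95 ± 0.14 (± gives the SE of a log2 change throughout; edgeR adjusted p = 0.00716), or 1.93-fold. The IgG libraries, at 17968 ± 1790.2 CPM, exceeded Input by almost as much, with a log2 change of 0.89 ± 0.14 (edgeR adjusted p = 0.00287). Between anti-m6A and IgG the log2 change was 0.06 ± 0.14 (edgeR adjusted p = 0.703). The Spp1 call of anti-m6A against Input was lost with DESeq2's size factors (0.51, edgeR adjusted p = 0.0836), with library totals (0.41, edgeR adjusted p = 0.0825) and with the DESeq2 Wald test (0.51, adjusted p = 0.0666). Its call of IgG against Input was lost with DESeq2's size factors (0.44, edgeR adjusted p = 0.101), with the DESeq2 Wald test (0.44, adjusted p = 0.104) and with only the 4 libraries compared (0.50, edgeR adjusted p = 0.0989). Where each library had to hold 10 counts, the change was near 0 in IgG against Input (0.0095, edgeR adjusted p = 0.974) and 0.38 in anti-m6A against Input (edgeR adjusted p = 0.170). With library totals Spp1 was lower in anti-m6A than in IgG (-0.47, edgeR adjusted p = 0.0382). A predicted gene on the same strand, Gm42793, overlaps 181 bases of the Spp1 exons, and reads there cannot be told apart.

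Osteonectin, encoded by Sparc, binds collagen and calcium and is among the most abundant non-collagen proteins of bone. The gene spans 55394159 to 55420080 on chromosome 11, with 10 exons and 2300 bases in its main transcript. Sparc had counts of 36929 and 31716 in anti-m6A, 9702 and 5966 in IgG and 18161 and 33903 in Input. Its levels were 7659 and 7996 CPM in anti-m6A, 3751 and 3867 CPM in IgG, against 2149 and 3289 CPM in Input. On this scale none of the 3 groups overlapped, with anti-m6A highest and Input lowest. Sparc averaged 7828 ± 238 CPM in anti-m6A, 3809 ± 81.8 CPM in IgG, against 2719 ± 806 CPM in Input (SD, n = 2 each). It was higher in anti-m6A than in Input by a log2 change of 1.53 ± 0.22 (edgeR adjusted p = 0.00716), or 2.88-fold, and higher than in IgG by 1.04 ± 0.22 (edgeR adjusted p = 0.00727). The call against Input held under all 14 alternatives, at 0.96 to 1.86, and the call against IgG held under 13 of 14, the exception being library totals (0.52, edgeR adjusted p = 0.0509). In IgG against Input the log2 change was 0.49 ± 0.22 (edgeR adjusted p = 0.0992), and without the second Input library it was 0.83 (edgeR adjusted p = 0.00827). Where each library had to hold 10 counts, this change turned to -0.40 (edgeR adjusted p = 0.186).

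Bone sialoprotein, encoded by Ibsp, is an acidic protein that binds hydroxyapatite and can nucleate it. It lies near Spp1, at 104299287 to 104311472 on chromosome 5, with 7 exons and 2068 bases in its main transcript. Ibsp had counts of 14188 and 12812 in anti-m6A, 2331 and 1066 in IgG and 14995 and 28300 in Input. Its levels were 2943 and 3229.9 CPM in anti-m6A, 901 and 691 CPM in IgG, against 1774 and 2745 CPM in Input. The anti-m6A libraries were the highest, the IgG libraries were well below all others, and the groups did not overlap. Ibsp averaged 3086 ± 203 CPM in anti-m6A and 796 ± 149 CPM in IgG (SD, n = 2 each), which is a log2 change of 1.95 ± 0.27 (edgeR adjusted p = 0.00197). Against the Input mean of 2259.9 ± 686 CPM the change in anti-m6A was 0.45 ± 0.26 (edgeR adjusted p = 0.211). Without the second Input library, the higher of the pair, it was 0.80 and passed the threshold (edgeR adjusted p = 0.0230), whereas with library totals it turned to -0.083 (edgeR adjusted p = 0.755). IgG was 2.84-fold lower than Input, with an SE of 0.27 on the log2 scale (edgeR adjusted p = 0.00428). The anti-m6A call against IgG and the IgG call against Input held under all 14 alternatives.

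Osteocalcin, encoded by Bglap, is a small vitamin K-dependent protein made late in osteoblast maturation that binds calcium in the mineral. The main Bglap transcript has 4 exons and only 440 bases. Bglap had counts of 1580 and 1363 in anti-m6A, 968 and 416 in IgG and 564 and 377 in Input. Its levels were 328 and 344 CPM in anti-m6A, 374 and 270 CPM in IgG, against 66.7 and 36.6 CPM in Input. As for Spp1, anti-m6A and IgG overlapped and both stood above Input. Bglap averaged 336 ± 11.2 CPM in anti-m6A and 51.7 ± 21.3 CPM in Input (SD, n = 2 each), which is a log2 change of 2.70 ± 0.38 (edgeR adjusted p = 0.00716), or 6.50-fold. This was the highest log2 change of the 8 tested genes in that comparison, and 80.2% of all genes tested had a lower one. IgG, at 322 ± 74.0 CPM, exceeded Input by a log2 change of 2.64 ± 0.38 (edgeR adjusted p = 0.00202). Between anti-m6A and IgG the log2 change was 0.06 ± 0.35 (edgeR adjusted p = 0.899). Both calls against Input held under all 14 alternatives, at 2.13 to 3.20 for anti-m6A and 1.52 to 3.14 for IgG.

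The row of Bglap2, which shares most of its sequence with Bglap, did not follow Bglap into IgG. Bglap2 had counts of 952 and 779 in anti-m6A, 28 and 53 in IgG and 722 and 519 in Input. Its mean level was 197 ± 0.755 CPM in anti-m6A, 22.6 ± 16.6 CPM in IgG, against 67.9 ± 24.8 CPM in Input (SD, n = 2 each). Bglap2 was thus well above IgG in anti-m6A, with a log2 change of 3.14 ± 0.64 (edgeR adjusted p = 0.00623). Against Input the anti-m6A change was 1.54 ± 0.59 (edgeR adjusted p = 0.0831) and the IgG change was -1.61 ± 0.61 (edgeR adjusted p = 0.0603). The anti-m6A change against Input passed the threshold without the first or the second IgG library (1.47 each, edgeR adjusted p = 0.0321 and 0.0326), without the first Input library (1.97, edgeR adjusted p = 0.0348) and with only the 4 libraries compared. The IgG change passed in 6 of 13 alternatives, among them without the second IgG library (-2.70, edgeR adjusted p = 0.0113), without the second Input library (-1.96, edgeR adjusted p = 0.0245) and without the second anti-m6A library (-1.68, edgeR adjusted p = 0.0448). Bglap3 had only 17 and 20 counts in anti-m6A, 13 and 7 in IgG and 11 and 31 in Input, and passed the threshold in none of the 3 comparisons. Without the second Input library Bglap3 passed in anti-m6A against Input (1.68, edgeR adjusted p = 0.0188; 0.97 with all libraries) and in IgG against Input (1.87, edgeR adjusted p = 0.0157; 1.14 with all libraries).

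In these libraries, the split of counts among the osteocalcin rows differed between groups. Bglap took 62.0% (exact 95% interval 60.1% to 63.9%) and 63.0% (61.0% to 65.1%) of the 3 rows in anti-m6A. In IgG it took 95.9% (94.5% to 97.1%) and 87.4% (84.1% to 90.2%), and in Input 43.5% (40.8% to 46.2%) and 40.7% (37.5% to 43.9%). The 3 groups did not overlap, and the intervals of the IgG pair did not overlap each other. The group means were 62.5 ± 0.748% in anti-m6A, 91.7 ± 6.04% in IgG and 42.1 ± 1.99% in Input (SD, n = 2 each). Each comparison of these shares had an exact two-sided permutation p = 0.333. This is the smallest that 2 libraries against 2 can give, so the test cannot decide whether the split depends on the group. With the 3 rows summed, the osteocalcin counts were 2549 and 2162 in anti-m6A, 1009 and 476 in IgG and 1297 and 927 in Input. The sum was still higher than Input in anti-m6A, with a log2 change of 2.14 (edgeR adjusted p = 0.00715), and in IgG, at 1.52 (edgeR adjusted p = 0.00764). Between anti-m6A and IgG the summed change was 0.62 (edgeR adjusted p = 0.116).

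**Figure D3:**
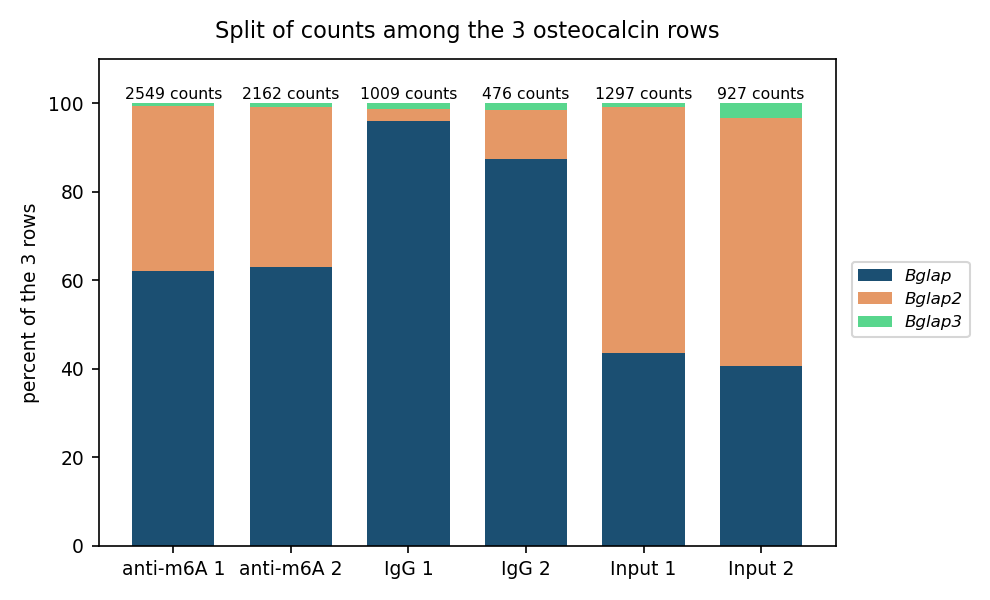
Share of Bglap, Bglap2 and Bglap3 in the counts of the 3 osteocalcin rows of each library, in percent, with the summed count above each bar. Bglap is the larger part in anti-m6A (62.0% and 63.0%) and nearly all in IgG (95.9% and 87.4%), whereas Bglap2 is the larger part in Input (55.7% and 56.0%).

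Hepatocyte and blood markers were also higher in the IgG group, in which Spp1 and Bglap were as high as in anti-m6A. Markers of endothelium and chondrocytes were not. The 7 endothelial markers summed to 917 and 818 counts in anti-m6A, 0 and 1 in IgG and 2033 and 2103 in Input. The 10 chondrocyte markers summed to 338 and 232 in anti-m6A, 0 in both IgG libraries and 335 and 490 in Input. Osteoclast and macrophage markers, given above, were also lower in IgG than in Input. The 10 hepatocyte markers summed to 0.0924% and 0.0958% of counts in anti-m6A, 2.58% and 2.75% in IgG and 0.0166% and 0.210% in Input, with 6 of them detected in anti-m6A, 10 in IgG and 8 to 9 in Input. Of the 10, Agxt had 0 counts in both anti-m6A and both Input libraries, and Gnmt, Gc and Serpina1b had 0 counts in both anti-m6A libraries. The 11 blood markers in the table summed to 0.0873% to 0.0996% in anti-m6A, 0.634% to 0.644% in IgG and 0.0576% to 0.0841% in Input, with 5 to 7 detected. Ptprc, which encodes CD45, had 0 counts in all 6 libraries, as did Elane and Cd79a. The part of these transcripts in the IgG levels of Spp1 and Bglap was not tested.

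Tissue-nonspecific alkaline phosphatase, encoded by Alpl, is the enzyme that hydrolyses pyrophosphate and is an early marker of the osteoblast line. The gene spans 137741731 to 137796384 on chromosome 4, with 12 exons and 2522 bases in its main transcript. Alpl had counts of 304 and 224 in anti-m6A, 72 and 24 in IgG and 936 and 1093 in Input. Its levels were 63.1 and 56.5 CPM in anti-m6A, 27.8 and 15.6 CPM in IgG, against 111 and 106 CPM in Input. The groups did not overlap, and Input was the highest. Alpl averaged 59.8 ± 4.65 CPM in anti-m6A and 21.7 ± 8.69 CPM in IgG (SD, n = 2 each), which is a log2 change of 1.45 ± 0.36 (edgeR adjusted p = 0.0126). That call was lost without the first anti-m6A library (edgeR adjusted p = 0.0951) and without the second (edgeR adjusted p = 0.0687). Against the Input mean of 108 ± 3.35 CPM the change in anti-m6A was -0.86 ± 0.34 (edgeR adjusted p = 0.0934). It passed the threshold without the first IgG library (-0.92, edgeR adjusted p = 0.0428) or the second (-0.92, edgeR adjusted p = 0.0417), with DESeq2's size factors (-1.30, edgeR adjusted p = 0.0157) and with library totals (-1.40, edgeR adjusted p = 0.0162). IgG was lower than Input by a log2 change of -2.31 ± 0.36 (edgeR adjusted p = 0.00282), a call that held under all 14 alternatives.

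Neutral sphingomyelinase 2, encoded by Smpd3, splits sphingomyelin into ceramide and phosphocholine, and mice that lack it have poorly mineralised bone. The gene spans 106252548 to 106337965 on chromosome 8, and its main transcript has 5148 bases. Smpd3 had counts of 14 and 8 in anti-m6A, 0 and 0 in IgG, and 13 and 773 in Input. The second Input library held nearly all of its counts, and the first was no higher than the anti-m6A libraries. In CPM, Smpd3 was 2.90 and 2.02 in anti-m6A, 0 in IgG, and 1.54 and 75.0 in Input. Anti-m6A and Input overlapped, and the log2 change was -3.94 ± 1.88 (edgeR adjusted p = 0.157). The direction rested on 1 Input library. Without the first Input library the change was -4.90 and passed the threshold (edgeR adjusted p = 0.00105), and without the second it turned to 0.68 (edgeR adjusted p = 0.270). Against IgG it was at least 1.58-fold higher in anti-m6A, which did not pass (edgeR adjusted p = 0.167) but did without the first Input library (edgeR adjusted p = 0.00471) and without the second (edgeR adjusted p = 0.00879). IgG was at least 24.7-fold lower than the mean of Input (edgeR adjusted p = 0.0444), a call lost without the first IgG library and without the second. That bound rested on the second Input library. The first, at 1.54 CPM, lay between the IgG floors of 1.16 and 1.94 CPM, so no fold is shown for it. Exons of Prmt7 on the opposite strand overlap 247 bases of Smpd3, and the libraries do not mark strand.

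PHEX is an endopeptidase of osteoblasts and osteocytes whose loss in humans causes X-linked hypophosphataemia. The gene spans 157162075 to 157415286 on chromosome X, with 22 exons and 6265 bases in its main transcript. Phex had counts of 17 and 8 in anti-m6A, 0 and 0 in IgG, and 3 and 2 in Input. It was the gene with the fewest counts of the 9 and was not tested. The pooled ratio of anti-m6A to Input was 10.7 in CPM (25 against 5 counts), with an exact 95% counting interval of 4.01 to 35.7 that does not include the spread between replicates. Against the IgG floor it was at least 1.79-fold higher in anti-m6A.

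Ifitm5, also called Bril, is a short membrane protein of osteoblasts, and a variant of the human gene causes osteogenesis imperfecta type V. The gene spans 140948958 to 140950243 on chromosome 7, with 2 exons and 765 bases in its main transcript. Ifitm5 had counts of 1717 and 1552 in anti-m6A, 0 and 0 in IgG, and 548 and 6640 in Input. Its levels were 356 and 391 CPM in anti-m6A, 0 in IgG, and 64.8 and 644 CPM in Input. The anti-m6A pair lay close together and between the Input libraries, which stood far apart. Against Input the log2 change was 0.08 ± 1.07 (edgeR adjusted p = 0.965), and its direction depended on 1 Input library. Without the first Input library the change was -0.79 (edgeR adjusted p = 0.0163), and without the second it was 2.53 (edgeR adjusted p = 0.00142). Against IgG, Ifitm5 was at least 241-fold higher in anti-m6A (edgeR adjusted p = 0.00652). IgG was at least 228-fold lower than the mean of Input (edgeR adjusted p = 0.00737). That bound rested mostly on the second Input library (644 CPM) and is lower for the first (64.8 CPM). The anti-m6A call against IgG held under all 13 alternatives that could test it. A readthrough gene on the same strand, Gm45717, overlaps 227 bases of the Ifitm5 exons.

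Pth1r is the G protein-coupled receptor for parathyroid hormone and its related peptide. The gene spans 110722085 to 110747145 on chromosome 9, with 14 exons and 2307 bases in its main transcript. Pth1r had counts of 1140 and 839 in anti-m6A, 0 and 0 in IgG, and 1274 and 2126 in Input. Its levels were 236 and 212 CPM in anti-m6A, 0 in IgG, and 151 and 206 CPM in Input. Both anti-m6A libraries were above both Input libraries by a narrow margin. Pth1r averaged 224 ± 17.6 CPM in anti-m6A and 179 ± 39.2 CPM in Input (SD, n = 2 each), which is a log2 change of 0.33 ± 0.28 (edgeR adjusted p = 0.394), which turned to -0.11 with DESeq2's size factors and -0.21 with library totals. Against IgG it was at least 144-fold higher in anti-m6A (edgeR adjusted p = 5.66e-04), which held under all 13 alternatives that could test it. IgG was at least 115-fold lower than Input (edgeR adjusted p = 5.16e-04).

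**Figure D4:**
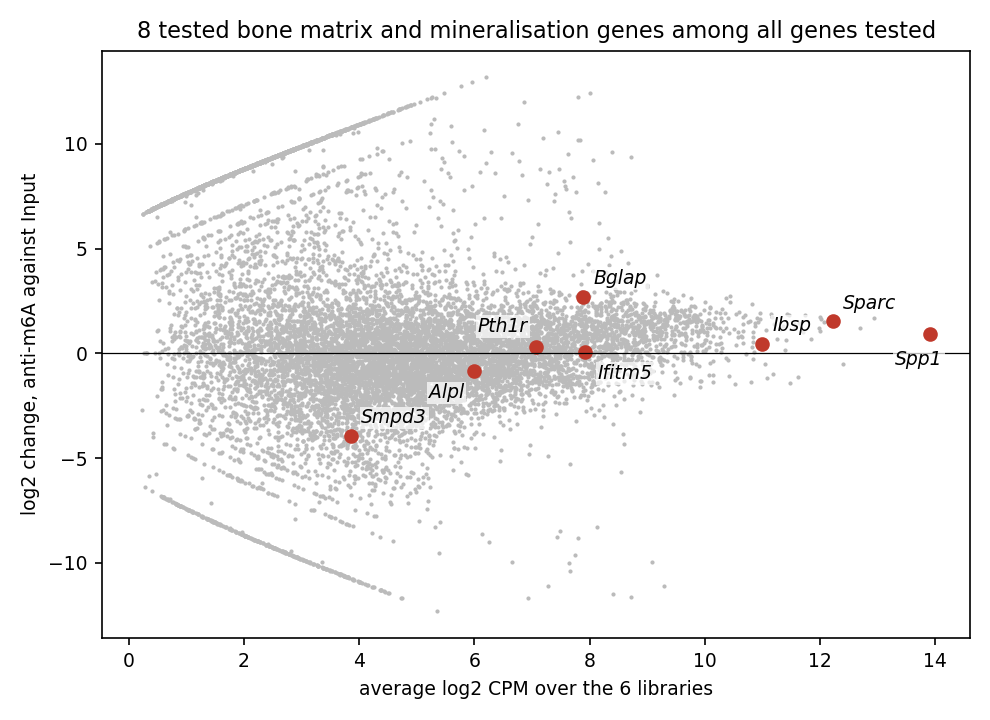
Log2 change in anti-m6A against Input for every gene tested (grey), plotted against average log2 CPM over the 6 libraries, with the 8 tested genes in red. Spp1, Sparc and Ibsp lie at the abundant end, Bglap has the highest change of the 8, and Smpd3 the lowest; the grey lines at top and bottom are genes with 0 counts in 1 group, whose fitted value depends on the prior count.

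The gap between the Input libraries was itself uneven across the 9 genes. The second Input library exceeded the first 48.7-fold for Smpd3 and 9.93-fold for Ifitm5, in CPM. With 1 added to each CPM, which damps the ratio of low levels, the log2 gap was 4.90 for Smpd3 and 3.29 for Ifitm5. On that scale only 2.28% of the genes tested had a wider gap in either direction than Smpd3, and 5.21% a wider one than Ifitm5. Ibsp, Sparc, Pth1r and Spp1 were higher in the second library 1.55-fold, 1.53-fold, 1.37-fold and 1.20-fold. Alpl was almost equal, with a ratio of 0.957, and Bglap was lower there, with a ratio of 0.548. The hepatocyte markers, at 0.0166% and 0.210% of counts in the first and second Input libraries, moved the same way as Smpd3 and Ifitm5. Their part in the gap was not tested. The IgG libraries held more of these markers (2.58% and 2.75%) and 0 counts of Smpd3 and Ifitm5. Other bone genes moved both ways between the Input libraries. Dmp1 had 28 and 155 counts and Mgp 2505 and 7847, against 337 and 238 for Enpp1.

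**Figure D5:**
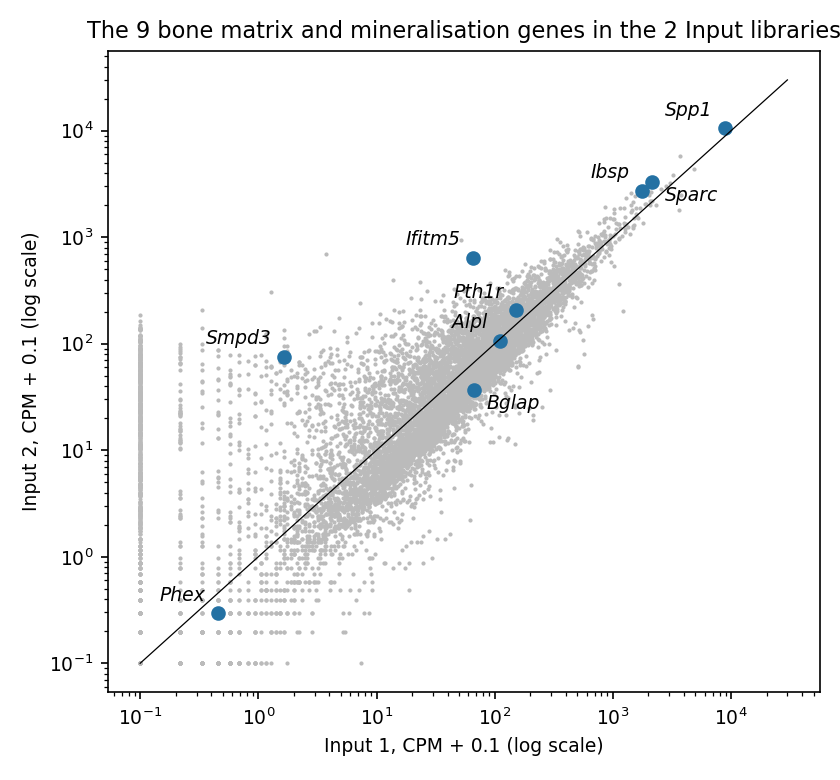
CPM in the second Input library against CPM in the first, on log axes with 0.1 added, for every gene tested (grey) and the 9 genes (blue); the line marks equal levels. Smpd3 and Ifitm5 lie far above the line, and Bglap lies below it.

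Levels can be compared between genes only per length, here as CPM per kb of the main transcript. In anti-m6A the order of the mean levels per kb was Spp1 (13289), Sparc (3403), Ibsp (1492), Bglap (763), Ifitm5 (488), Pth1r (97.1), Alpl (23.7), Smpd3 (0.478) and Phex (0.442). The neighbours in this order did not overlap, except Smpd3 and Phex. In IgG the order of the mean levels per kb was Spp1 (12734), Sparc (1656), Bglap (732), Ibsp (385) and Alpl (8.60), with no overlap, and the other 4 genes were at 0. Bglap thus stood above Ibsp in IgG and below it in anti-m6A and Input. In Input the order of the mean levels per kb was Spp1 (6885), Sparc (1182), Ibsp (1093), Ifitm5 (463), Bglap (117), Pth1r (77.4), Alpl (43.0), Smpd3 (7.43) and Phex (0.0438). Sparc and Ibsp overlapped in Input, as did Ifitm5 and Bglap, and Bglap and Pth1r.

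Each of the 8 tested genes was centred on its own mean of log2(CPM + 1) over the 6 libraries, and the mean of these was taken as their shared profile. Ifitm5 (Pearson r = 0.996), Ibsp (0.991), Pth1r (0.966) and Alpl (0.810) lay close to it, and Smpd3 (0.707) and Sparc (0.394) less so. Spp1 (-0.23) and Bglap (-0.35) ran the other way. The 3 genes outside the lists with the most similar profile were Cdk7, Nfkbib and Ell2, each with r = 0.999 over the 6 libraries. Like Ifitm5, all 3 had 0 counts in IgG and were higher in the second Input library than in the first, at 120 against 16.6 CPM for Cdk7. Each of the 8 genes is itself part of the profile, so its r is in part set in advance. Of all genes tested, 73.4% had 0 counts in both IgG libraries, so that feature of the profile is common. These correlations describe 6 libraries in 3 groups and were given no test.

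Other genes of bone formation were counted in anti-m6A against Input by the same edgeR test, with 28.0% of all genes higher and 20.5% lower. Leaving out 1 library moved these shares for the whole table as well as for the lists. Of all genes tested, 12.4% were higher and 3.36% lower without the first anti-m6A library, 15.1% and 4.18% without the second, 39.5% and 31.9% without the first Input library, and 43.9% and 30.1% without the second. Of 18 genes of type I collagen and its processing, all 18 were tested, 0 were higher and 10 were lower, with a median log2 change of -0.99. Col1a2, a chain of type I collagen, had counts of 3361 and 2941 in anti-m6A and 17840 and 22702 in Input, a log2 change of -1.58 ± 0.21 (edgeR adjusted p = 0.00716). Tmem38b, an ion channel of the endoplasmic reticulum, had counts of 9 and 4 in anti-m6A and 460 and 429 in Input, a log2 change of -5.03 ± 0.55 (edgeR adjusted p = 0.00716). The groups did not overlap for either gene. P4hb (-1.97 ± 0.27), the beta subunit of prolyl 4-hydroxylase, and Sec24d (-3.09 ± 0.33), a coat protein of secretory vesicles, were also lower (edgeR adjusted p = 0.00716 for each). Without the first anti-m6A library 3 of the 18 were lower, and Sec24d missed the threshold (edgeR adjusted p = 0.0581); without the second 5 were lower.

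Of 16 other non-collagen matrix genes, 11 were tested, 1 was higher and 5 were lower, with a median log2 change of -1.62. Fibronectin (Fn1) had counts of 862 and 654 in anti-m6A and 4261 and 8891 in Input, a log2 change of -1.99 ± 0.29 (edgeR adjusted p = 0.00716), a call that held under all alternatives run. Thbs1 (thrombospondin) was lower by -4.05 ± 0.69 (edgeR adjusted p = 0.0128) and periostin (Postn) by -3.41 ± 0.95 (edgeR adjusted p = 0.0347). Chad, a leucine-rich matrix protein, had counts of 18 and 14 in anti-m6A and 0 in Input, at least 11.2-fold higher (edgeR adjusted p = 0.00716). Thbs1, Postn and Chad each missed the threshold without either anti-m6A library, with edgeR adjusted p of 0.0817 and 0.152 for Thbs1, 0.106 and 0.196 for Postn, and 0.0851 and 0.0653 for Chad. The list then had 0 higher and 2 lower in either case, and without the first or the second Input library it had 2 or 3 higher. Mepe, Dspp and Tnn had 0 counts in all 6 libraries.

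Of 16 genes that handle phosphate, pyrophosphate and matrix vesicles, 9 were tested, 1 was higher and 2 were lower, with a median log2 change of 0.09. Ank, which exports pyrophosphate or its precursor from cells, had counts of 24 and 27 in anti-m6A and 569 and 809 in Input, a log2 change of -3.63 ± 0.42 (edgeR adjusted p = 0.00716). Vkorc1, the enzyme that recycles vitamin K for osteocalcin, was higher by 0.86 ± 0.20 (edgeR adjusted p = 0.0204), and annexin A5 (Anxa5) was lower by -0.63 ± 0.19 (edgeR adjusted p = 0.0435). Without the first anti-m6A library none of the 9 was called in either direction, with edgeR adjusted p of 0.0708 for Ank, 0.0932 for Vkorc1 and 0.236 for Anxa5. Without the second, 1 was lower and none higher (Vkorc1 edgeR adjusted p = 0.217, Anxa5 0.437), and without the second Input library 2 were higher and 4 lower. Vkorc1 also missed the threshold with DESeq2's size factors (0.42, edgeR adjusted p = 0.109) and library totals (0.32, edgeR adjusted p = 0.149). Phospho1, Fgf23 and Galnt3 had 0 counts in all 6 libraries.

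Of 14 genes of parathyroid hormone and vitamin D signalling, 10 were tested, 3 were higher and 3 were lower, with a median log2 change of 0.73. Tnfsf11, the osteoclast-inducing ligand RANKL, had counts of 82 and 65 in anti-m6A and 910 and 1243 in Input, a log2 change of -2.77 ± 0.30 (edgeR adjusted p = 0.00716). Prkaca, a catalytic subunit of protein kinase A, had counts of 29 and 23 in anti-m6A and 4 and 3 in Input, a log2 change of 3.88 ± 0.46 (edgeR adjusted p = 0.00716). Nr4a2 (2.70 ± 0.69, edgeR adjusted p = 0.0368) and Creb1 (2.07 ± 0.45, edgeR adjusted p = 0.0233), transcription factors downstream of cyclic AMP, were also higher. All 4 missed the threshold without the first anti-m6A library (edgeR adjusted p = 0.0651 for Tnfsf11, 0.154 for Prkaca, 0.387 for Nr4a2 and 0.361 for Creb1) and without the second (0.0574, 0.158, 0.274 and 0.384 in the same order of genes). Without either anti-m6A library 0 of the 10 were higher, and 0 (without the first) or 1 (without the second) lower. Without either Input library 5 were higher.

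Of 12 osteoblast transcription factors, 10 were tested, 2 were higher and 3 were lower, with a median log2 change of -0.26. Cbfb, the partner of Runx2, had counts of 188 and 157 in anti-m6A and 0 in Input, at least 122-fold higher (edgeR adjusted p = 0.00716), a call that held under all 13 alternatives that could test it. Creb3l1 was at least 20.2-fold higher (edgeR adjusted p = 0.00786) and Dlx6 was lower by -2.85 ± 0.46 (edgeR adjusted p = 0.0114). Without the first anti-m6A library these had edgeR adjusted p of 0.0501 for Creb3l1 and 0.295 for Dlx6, and without the second 0.0502 and 0.317, so that 1 gene was higher and 1 lower in either case. Without the first Input library 4 were higher.

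Of 12 sphingomyelin and ceramide enzymes beside Smpd3, 10 were tested, 3 were higher and 5 were lower, with a median log2 change of -1.46. Smpd4, another neutral sphingomyelinase, had counts of 119 and 89 in anti-m6A and 0 in Input, at least 72.9-fold higher (edgeR adjusted p = 0.0079), a call that held under all alternatives that could test it. The ceramide synthase gene Cers2 had counts of 201 and 139 in anti-m6A and 2180 and 1665 in Input, a log2 change of -2.45 ± 0.37 (edgeR adjusted p = 0.00984). Another ceramide synthase, Cers6, was at least 19.2-fold higher (edgeR adjusted p = 0.00716), and Sptlc1, a subunit of serine palmitoyltransferase, was lower by -4.30 ± 0.59 (edgeR adjusted p = 0.00812). Without the first anti-m6A library 1 was higher and 0 were lower (edgeR adjusted p = 0.0592 for Cers2, 0.0627 for Cers6 and 0.108 for Sptlc1). Without the second 0 were lower (0.0573 for Cers2 and 0.118 for Sptlc1).

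Of the 6 other Ifitm genes, 4 were tested and all 4 exceeded Input in anti-m6A, with a median log2 change of 2.13. Their products are interferon-induced membrane proteins, several of which restrict the entry of viruses. Ifitm3 had counts of 21146 and 19203 in anti-m6A and 8465 and 15446 in Input, a log2 change of 1.88 ± 0.24, and Ifitm2 and Ifitm1 changed by 1.81 ± 0.17 and 2.37 ± 0.25 (edgeR adjusted p = 0.00716 for each). Ifitm10 had counts of 46 and 40 in anti-m6A and 0 in Input, at least 30.4-fold higher (edgeR adjusted p = 0.00716). All 4 calls held under every alternative that could test them. Like Ifitm5, Ifitm10 had 0 counts in both IgG libraries. Ifitm1, Ifitm2 and Ifitm3 had 680 and 305, 3485 and 1793, and 6681 and 3402 counts there. All 4 tested genes of the family also exceeded IgG in anti-m6A; Ifitm3 missed the threshold there with library totals (edgeR adjusted p = 0.0661) and without the second IgG library (edgeR adjusted p = 0.0532).

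Set against IgG instead, where 73.1% of all genes were higher and 8.31% lower in anti-m6A, the counts of these lists were as follows. All 10 tested genes of parathyroid hormone and vitamin D signalling and all 10 tested sphingomyelin and ceramide enzymes were called higher. Of the collagen list 13 of 18 were higher and 4 lower, of the osteoblast transcription factors 8 of 10 were higher and 1 lower, and of the other matrix genes 7 of 11 were higher and 1 lower. The phosphate and vesicle list had 5 of 9 higher and 3 lower. Without the first anti-m6A library 4 of the other matrix genes were higher, without either anti-m6A library no transcription factor was lower, and without either Input library 2 other matrix genes were lower. Fn1 and Anxa5 were among the genes lower in anti-m6A than in IgG, with log2 changes of -2.88 ± 0.31 for Fn1 (edgeR adjusted p = 0.00101) and -1.76 ± 0.20 for Anxa5 (edgeR adjusted p = 0.00112), and these calls held under all 14 alternatives. Fn1 had counts of 862 and 654 in anti-m6A, against 3390 and 1892 in IgG. In IgG against Input, 9.89% of all genes were higher and 61.5% lower. Of the lists, 14 of 18 collagen genes, 8 of 11 other matrix genes, 8 of 10 sphingomyelin enzymes, 7 of 10 parathyroid hormone and vitamin D genes, 6 of 10 transcription factors and 5 of 9 phosphate genes were lower in IgG. The Ifitm family had 2 of 4 (Ifitm2 and Ifitm3) higher in IgG than in Input and none lower. With DESeq2's size factors neither Ifitm2 (0.12, edgeR adjusted p = 0.526) nor Ifitm3 (0.46, edgeR adjusted p = 0.0761) passed. Without the first IgG library the log2 changes were 0.41 for Ifitm2 and 0.74 for Ifitm3. Where each library had to hold 10 counts, Ifitm1 was lower in IgG (-0.72, edgeR adjusted p = 0.0207).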

How the data were processed

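The authors deposited raw counts for each gene (a table of Entrez gene numbers by 6 libraries). Per the submitters' processing notes, Picard, featureCounts, edgeR 3.38.1 and build mm10 were used; the aligner, the annotation and the treatment of multi-mapped reads were not given in the sources used here. Per the labels' protocols, libraries were made by Smart-seq2, which has no molecular identifiers and marks no strand, so overlapping and antisense genes share reads and intervals cover counting error only.

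Symbols came from RefSeq's table of GRCm38.p6 (25275 of 27179 gene numbers; the other 1904 stayed in the fit). The analysis used edgeR 4.0.16 with limma 3.58.1 under R 4.3.3: filterByExpr (minimum count 10, minimum total 15; 11281 genes), TMM, and 1 quasi-likelihood fit of all 6 libraries as 3 group means, leaving 3 residual degrees of freedom. Benjamini-Hochberg adjustment of the p-values ran over all genes tested, with a threshold of 0.05. The SE is the log2 change divided by the square root of F. Against 0 counts, a fold is a bound from the mean of the other group and 3 counts per library. CPM per kb uses the main GENCODE M21 transcript, from which sequences were also read. The code was tested on simulated data.

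The 9 genes and all lists were chosen with earlier results of these data known. Of each list, up to 4 genes with the largest absolute log2 change among those called in anti-m6A against Input were named; 1 of these is not reported here. Alternatives were another scaling (DESeq2 1.42.0 size factors, library totals), other count filters, the DESeq2 Wald test, only the 4 libraries compared, a replicate block, summed osteocalcin rows, and each library left out.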

Additional observations from a re-analysis of the deposited data

How the results depend on the processing

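With 2 libraries per group and Input replicates 119 times more variable than random sampling, a change that misses the threshold is not shown to be absent, and where 1 library was left out the lone library of its group was assumed to vary like the others. IgG depth limits counts of 0 to 1.16 and 1.94 CPM. The causes of the shifts below were not tested.

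Genes of the 9 called higher in anti-m6A than in IgG were 5, and 3 where each library had to hold 10 counts, since only 5 of the 9 were then tested; leaving out 1 library gave 4 to 6. None was lower, but 1 was with library totals (Spp1, -0.47), and 0 with any library left out. Higher in anti-m6A than in Input were 3, but 2 with DESeq2's size factors, library totals, 10 counts per library and the DESeq2 Wald test, each of which lost Spp1, 4 with no count filter, and 3 to 5 with 1 library left out (5 without the second Input library). None was lower, but 1 was with DESeq2's size factors, with library totals and with 10 counts per library, 2 were with the DESeq2 Wald test, and 0 to 2 with 1 library left out. Higher in IgG than in Input were 2, but 1 with DESeq2's size factors, with 10 counts per library, with the DESeq2 Wald test and with only the 4 libraries compared; leaving out 1 library gave 2 to 3. Lower in IgG were 5, but 2 with 10 counts per library, and 4 to 5 with 1 library left out.

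Log2 changes turned sign in these cases, of which only Spp1 (-0.47) and Ifitm5 (-0.79) among the 9 genes then passed the threshold. In anti-m6A against IgG they were Bglap (-0.44 with library totals; -0.16 to 0.34 with an IgG library left out), Spp1 (-0.47 with library totals; -0.014 to 0.16 with an anti-m6A or IgG library left out) and Bglap3 (-0.43 to 0.074 with an anti-m6A library left out). In anti-m6A against Input they were Ibsp (-0.083 with library totals, -0.11 with 10 counts per library), Pth1r (-0.11 with DESeq2's size factors and the Wald test, -0.21 with library totals), Ifitm5 (-0.31 with DESeq2's size factors and the Wald test, -0.42 with library totals, and -0.79 to 2.53 with 1 library left out) and Smpd3 (-4.90 to 0.68 with 1 library left out). In IgG against Input they were Sparc (-0.40 with 10 counts per library), Ifitm2 (-0.30 likewise) and Ifitm1 (-0.72 likewise, -0.31 with DESeq2's size factors and the Wald test, -0.22 with only the 4 libraries compared, and -0.12 to 0.39 with 1 library left out). The Ifitm1 change with 10 counts per library passed the threshold (edgeR adjusted p = 0.0207). Same-numbered libraries deviated together with r of 0.127, 0.102 and 0.0456, and the labels do not say that a number marks a shared batch. With the replicate block, anti-m6A was higher than Input for 3 of the 9 and higher than IgG for 5, and IgG was lower than Input for 4, with Smpd3 no longer called (edgeR adjusted p = 0.0573). Over all genes, the block called 2122 higher and 1242 lower in anti-m6A than in Input. Of the other genes named, Nr4a2, Creb1, Prkaca, Chad, Creb3l1, Dlx6, Cers6 and Anxa5 then missed the threshold in that comparison (edgeR adjusted p = 0.143, 0.121, 0.0597, 0.0655, 0.0513, 0.0851, 0.0519 and 0.0973). Over the alternatives, the log2 changes of the 8 tested genes kept direction and side of the threshold 281 times, turned sign 17 times, gained a call 15 times and lost one 14 times.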
